A study of Mus musculus with 6 samples.

Results

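The BCL2 family of apoptosis regulators was followed in 2 mouse endothelial cell lines through 10 of its genes, chosen by symbol from a table of 24411 genes: the anti-apoptotic Bcl2, Bcl2l1 and Mcl1, the effectors Bax and Bak1, and the BH3-only genes Bid, Bad, Bcl2l11, Bbc3 and Pmaip1. The libraries were bulk RNA-seq, 3 of bEnd.3 and 3 of UV2. bEnd.3 cells are mouse brain endothelium made immortal by polyomavirus middle T antigen, and the labels give strain BALB/c. UV2, also written UV♀2 in the labels, is an endothelial line labelled (BALB/c x C57BL/6)F1. Every library came from confluent cells on 10-cm dishes that had then spent 3 days without serum, and no serum-fed library was compared. Each group is 1 line, so strain, tissue origin and immortalisation cannot be told apart.

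Apoptosis through the mitochondria is decided by contacts between the 3 classes of this family. Bax and Bak1 make pores in the outer mitochondrial membrane that release cytochrome c, the anti-apoptotic members hold them back, and the BH3-only members either activate the effectors or occupy the groove of the anti-apoptotic members. In endothelial cells, growth factors such as VEGF are known to raise Bcl2, and FOXO factors are known to raise Bcl2l11 when growth factors are withdrawn. Bax, Bbc3 and Pmaip1 are known targets of p53.

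The segment that joins the classes is the BH3 domain, and its coding sequence is shown to let the members be compared where they bind each other. In the main coding transcript of each gene below (GENCODE M21, mm10), a search for a leucine codon followed by 3 codons, then a glycine, serine or alanine codon and an aspartate codon gave exactly 1 match. Each line gives 12 codons, or 36 bases, read 5′ to 3′ within a single coding exon. Capitals mark the leucine codon and the last 2 codons of the match.

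Bcl2, chr1:106712575-106712610, minus strand: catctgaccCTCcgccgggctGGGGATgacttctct
Bcl2l1, chr2:152829697-152829732, minus strand: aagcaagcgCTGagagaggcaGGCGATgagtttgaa
Mcl1, chr3:95659427-95659462, plus strand: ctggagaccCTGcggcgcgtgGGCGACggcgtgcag
Bax, chr7:45465997-45466032, minus strand: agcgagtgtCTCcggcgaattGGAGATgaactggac
Bak1, chr17:27022531-27022566, minus strand: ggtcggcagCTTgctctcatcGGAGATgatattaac
Bid, chr6:120897289-120897324, minus strand: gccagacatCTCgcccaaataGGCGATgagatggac
Bad, chr19:6950783-6950818, plus strand: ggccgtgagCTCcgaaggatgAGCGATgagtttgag
Bcl2l11, chr2:128147141-128147176, plus strand: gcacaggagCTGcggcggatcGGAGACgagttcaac
Bbc3, chr7:16313764-16313799, plus strand: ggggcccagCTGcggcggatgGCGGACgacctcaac

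The codon before the aspartate codon was AGC, for serine, in Bad and GCG, for alanine, in Bbc3, and a glycine codon in the other 7 genes. The leucine codon was the 63rd codon of Bax, the 94th of Bcl2 and the 194th of Mcl1, which has a long segment ahead of the shared fold.

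Total expected counts ran from 21306441 to 28748128 per library. All 10 endothelial markers, Pecam1, Cdh5 and Kdr among them, were above 10 CPM in both lines, with summed levels of 11240 to 11720 CPM in bEnd.3 and 11210 to 12780 CPM in UV2. Of these 10, Flt1, Emcn, Eng and Erg were called lower in UV2 (log2 fold changes of -1.76, -1.47, -0.69 and -0.35), Tie1 was called higher (0.88), and 5 were not called. Flt1 and Emcn were also called beyond 2-fold. Summed mural markers ran from 0.448 to 0.673 CPM in bEnd.3 and from 3.62 to 6.29 CPM in UV2, with Rgs5 and Acta2 at 0 counts in bEnd.3. Most of the mural sum in UV2 was Pdgfrb, with means of 0.287 CPM in bEnd.3 and 4.36 CPM in UV2. Notch3 and Cspg4 went the other way, with 11 and 7 counts in bEnd.3 and 1 each in UV2. Fibroblast markers summed to between 1.57 and 2.85 CPM against between 7.90 and 16.4 CPM, with Col1a2 and Dpt at 0 in bEnd.3. Most of the fibroblast sum was Pdgfra, with means of 2.07 CPM in bEnd.3 and 10.99 CPM in UV2. Col1a1 went the other way, from 0.210 to 0.130 CPM. Leukocyte markers summed to between 91.4 and 160.2 CPM against between 608.6 and 629.9 CPM, nearly all from Cd68 and Lyz2. Lyz2 had means of 1.27 CPM in bEnd.3 and 330.2 CPM in UV2 and was called higher beyond 2-fold. Cd68 had means of 115.8 CPM in bEnd.3 and 285.3 CPM in UV2. Csf1r was not called, and Cd79a went the other way, from 0.241 to 0.0526 CPM. Cd3e was at 0 in both lines and Ptprc at 0 in UV2. Epithelial markers reached at most 0.0814 CPM in bEnd.3 and 0.501 CPM in UV2, with Epcam and Krt14 at 0 in both and Krt8 and Cdh1 at 0 in bEnd.3. The part of such markers in the differences below was not tested. The labels do not state that the 3 libraries of a line were grown separately, so the p-values describe the spread between libraries, which may be technical.

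The comparison of UV2 with bEnd.3 asked how the family's transcripts differ between 2 endothelial lines kept without serum. Levels are CPM, a share of counts against library totals scaled by TMM. Differences are log2 fold changes of UV2 minus bEnd.3, so a negative value is lower in UV2. Their standard error (SE) was derived as the absolute log2 fold change over the square root of the F statistic of edgeR's quasi-likelihood test. A gene was called at an adjusted p under 0.05 in edgeR's quasi-likelihood test across 12720 genes. UV2 had about a 3-fold lower level of Bax, lower Bbc3 and slightly lower Bcl2, Bcl2l1 and Mcl1, while Bcl2l11 was nearly 2-fold higher and Bak1, Bid and Bad were not called. Of 9 members that passed the filter on low counts, 1 was called higher in UV2 and 5 lower. Among all tested genes 67.1% were called, 33.9% as higher and 33.3% as lower, so 6 of 9 is close to the background, and the split by direction is given as a description. Libraries of bEnd.3 and UV2 were fully apart at 6 of the 9 members and at 73.2% of all tested genes. The median log2 fold change of the 9 members was -0.35, and that of all tested genes was -0.01. In bulk RNA, fewer cells that carry a transcript and less of it per cell cannot be told apart.

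**Figure D1:**
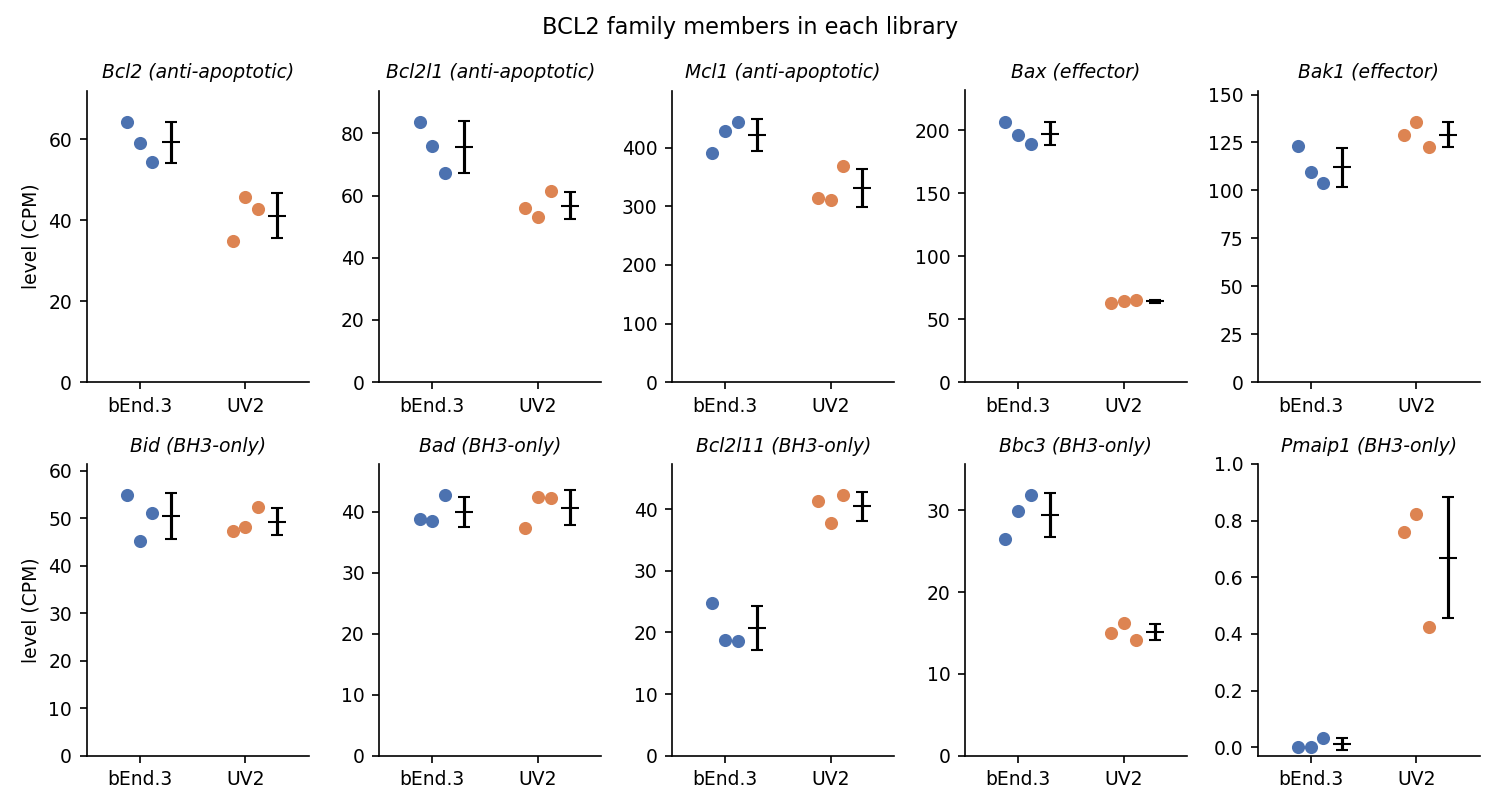
Level in CPM (vertical axes, linear) of each of the 10 members in each library, with bEnd.3 in blue and UV2 in orange. Points are libraries, and black bars are the mean ± SD of 3. Bax in UV2 lies between 63.01 and 65.1 CPM, far under its bEnd.3 range of 189.2 to 206.8 CPM, while the points of Bid and Bad overlap between the lines.

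Among the anti-apoptotic members, all 3 were called lower in UV2, each by less than 1.5-fold. Bcl2 (chromosome 1, 106538178 to 106714274), the founding member, which sits on mitochondrial and endoplasmic reticulum membranes, stood at 64.3, 59.0 and 54.3 CPM in bEnd.3 and at 34.97, 45.7 and 42.7 CPM in UV2. Every UV2 library was below every bEnd.3 library. Of the 9157 merged exon bases of Bcl2, 558 are shared with the opposite-strand D630008O14Rik, which is not analysed here. The mean went from 59.2 ± 5.001 to 41.1 ± 5.52 CPM (SD, n = 3 each), a log2 fold change of -0.53 (SE 0.11, edgeR adjusted p = 0.00393).

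Bcl2l1 (chromosome 2, 152780668 to 152831728), which encodes the survival protein BCL-XL, had 83.8, 75.8 and 67.3 CPM in bEnd.3 and 55.9, 53.1 and 61.5 CPM in UV2. The ranges were again separate, though the lowest bEnd.3 library and the highest UV2 library lay near each other. Its log2 fold change was -0.41 (SE 0.10, edgeR adjusted p = 0.00634). The table gives 1 value per gene, so the long BCL-XL and the short, pro-apoptotic BCL-XS transcripts of this gene were not separated.

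Both calls were lost once the median change of each gene's chromosome was removed. The median log2 fold change was -0.29 over 528 genes of chromosome 1 and -0.27 over 756 genes of chromosome 2. Relative to these, Bcl2 had a log2 fold change of -0.24 (edgeR adjusted p = 0.101) and Bcl2l1 one of -0.14 (edgeR adjusted p = 0.249).

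Mcl1 (chromosome 3, 95658788 to 95663176), a short-lived protein that guards Bak1, was the member with the highest CPM in both lines. It had 391.5, 429 and 444 CPM in bEnd.3 and 314, 311 and 369 CPM in UV2, with no overlap. The log2 fold change was -0.35 (SE 0.09, edgeR adjusted p = 0.0101). Chromosome 3 as a whole lay in the other direction, with a median of 0.25 over 460 genes.

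Of the 2 effectors, Bax was called lower in UV2 and Bak1 was not called. Bax (chromosome 7, 45461697 to 45466898), which moves from the cytosol to mitochondria when activated, had 206.8, 196 and 189.2 CPM in bEnd.3 and 63.01, 64.6 and 65.1 CPM in UV2. All UV2 libraries lay far below all bEnd.3 libraries, and they differed little among themselves. Merged exons of Bax span 1576 bases, of which 192 are shared with Gm45808, a gene on the same strand that is not analysed here. The mean went from 197.5 ± 8.87 to 64.3 ± 1.11 CPM (SD, n = 3 each), a 3.07-fold lower level and a log2 fold change of -1.62 (SE 0.06, edgeR adjusted p = 6.71e-07). Bax was the only tested member called beyond 2-fold (edgeR glmTreat, adjusted p = 2.32e-05), where 19.4% of all tested genes were called beyond 2-fold, 10.6% higher and 8.81% lower.

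Bak1 (chromosome 17, 27019810 to 27029009), the effector that resides on the mitochondrial membrane, had 123, 109.5 and 103.6 CPM in bEnd.3 and 129.1, 135.8 and 122.5 CPM in UV2. The highest bEnd.3 library lay above the lowest UV2 library, so the lines overlapped. The log2 fold change was 0.20 (SE 0.08) and was not called (edgeR adjusted p = 0.0591). It was called with the replicate number as a block (log2 fold change 0.21, adjusted p = 0.0423) and without bEnd.3 replicate 1 (0.28, adjusted p = 0.0121).

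Exons of Bak1 share 614 bases with Ggnbp1, an opposite-strand gene, and how the counting used strand is not given in the sources used here. Ggnbp1 stood at 2.497 CPM in bEnd.3 and 2.80 CPM in UV2, far below Bak1 in both.

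**Figure D2:**
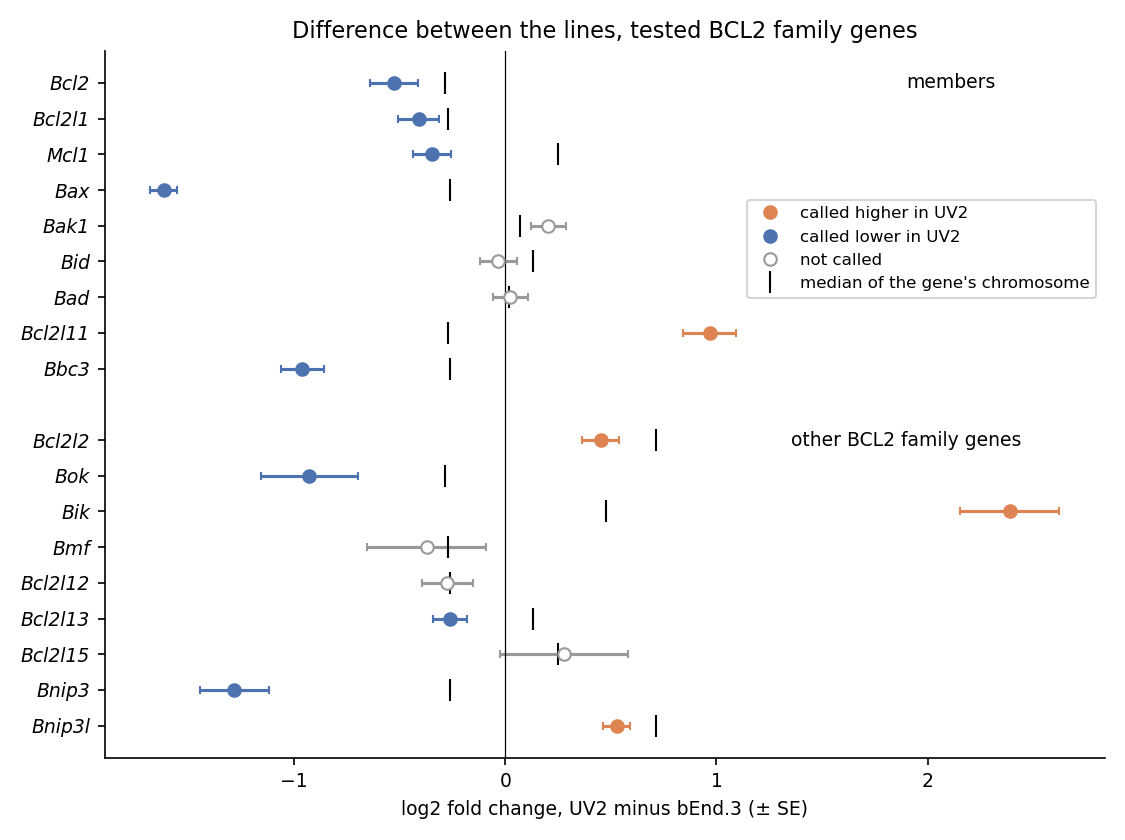
Log2 fold change of UV2 minus bEnd.3 (horizontal axis) with its SE for the 9 tested members and the 9 tested other genes of the family, one gene per row. Filled points were called, open points were not, and black ticks mark the median of the gene's chromosome. Bax at -1.62 and Bcl2l11 at 0.97 are the outermost members, and Bcl2 and Bcl2l1 lie close to the ticks of their chromosomes.

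The BH3-only members went in different directions. Bcl2l11 (chromosome 2, 128126038 to 128162547) encodes BIM, which binds all anti-apoptotic members and can activate Bax and Bak1 directly. It had 24.8, 18.8 and 18.5 CPM in bEnd.3 and 41.4, 37.8 and 42.2 CPM in UV2. Each UV2 library was above each bEnd.3 library, and bEnd.3 replicate 1 was the highest of its line. The mean went from 20.7 ± 3.53 to 40.5 ± 2.35 CPM (SD, n = 3 each), a 1.96-fold higher level and a log2 fold change of 0.97 (SE 0.13, edgeR adjusted p = 0.000291). Its chromosome's median was negative, and with that median removed the log2 fold change was 1.24.

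Bbc3 (chromosome 7, 16308393 to 16318205) encodes PUMA, which also binds all anti-apoptotic members. It had 26.5, 29.9 and 31.8 CPM in bEnd.3 and 15.03, 16.2 and 14.2 CPM in UV2. The lowest bEnd.3 library was well above the highest UV2 library. The level was 1.95-fold lower in UV2, with a log2 fold change of -0.96 (SE 0.10, edgeR adjusted p = 0.000106). Bax and Bbc3 both lie on chromosome 7, whose median was -0.26 over 664 genes, and both were still called lower with it removed (log2 fold changes of -1.36 and -0.70).

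Bid (chromosome 6, 120891930 to 120916853) links death receptors to mitochondria once caspase-8 has cut its protein. It had 54.8, 45.3 and 51.2 CPM in bEnd.3 and 47.2, 48.2 and 52.4 CPM in UV2. The lines overlapped, and the log2 fold change of -0.03 (SE 0.09, edgeR adjusted p = 0.761) was smaller than its error. Exons of Bid share 628 bases with Bcl2l13 on the opposite strand, a gene at 59.5 CPM in bEnd.3 and 49.5 CPM in UV2. The expected counts of Bid were whole in every library, and whether reads were shared between these genes was not tested.

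Bad (chromosome 19, 6941861 to 6951899) binds BCL2 and BCL-XL and is held inactive by survival kinases that phosphorylate it. It had 38.7, 38.4 and 42.7 CPM in bEnd.3 and 37.3, 42.45 and 42.2 CPM in UV2. The lines overlapped here as well, with a log2 fold change of 0.02 (SE 0.08, edgeR adjusted p = 0.814). Bad was the only member with values that were not whole, and its exons share 524 bases with Gpr137 on the opposite strand. Gpr137 stood at 55.1 CPM in bEnd.3 and 47.6 CPM in UV2, above Bad in each line, so the reads of these genes may not be fully separated.

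Pmaip1 (chromosome 18, 66458533 to 66465565) encodes NOXA, which binds MCL1 and promotes its breakdown. It had 0, 0 and 1 counts in bEnd.3 and 18, 17 and 11 counts in UV2. All UV2 libraries held more counts than any bEnd.3 library, but the gene stayed below the filter and was not tested with the others. The ratio of UV2 to bEnd.3 was 49.99, with an exact 95% counting interval of 8.54 to 2017 that covers counting error only. With no filter on low counts the gene was called higher (edgeR adjusted p = 0.000316) and was a second member beyond 2-fold. At 0.669 ± 0.215 CPM in UV2 (SD, n = 3) its level was the lowest of the members in that line too.

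Per length, the members spanned a wide range. Bax and Mcl1 overlapped at the top in bEnd.3, while Bax lay below Mcl1 and Bak1 in UV2. These levels are CPM per kilobase of exon, with all annotated exons of a gene merged (GENCODE M21), so a gene whose long exons are little used appears low. In bEnd.3, Bax had 131, 125 and 120.0 CPM per kilobase and Mcl1 had 114.5, 125.5 and 130.0, and these overlapped. Bak1 followed at 46.6 ± 4.21 CPM per kilobase. Then came Bcl2l1 at 16.5, Bad at 15.6, Bid at 14.2 and Bbc3 at 13.9 CPM per kilobase, where each neighbour overlapped the next. Bcl2 at 6.46, Bcl2l11 at 2.58 and Pmaip1 at 0.00414 CPM per kilobase were each below the one before without overlap.

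In UV2 the order began with Mcl1 at 96.95 ± 9.57 CPM per kilobase, then Bak1 at 53.7 ± 2.77 and Bax at 40.8 ± 0.707, all separate. Bak1 was thus above Bax in every UV2 library and below it in every bEnd.3 library. Bad at 15.9, Bid at 13.9 and Bcl2l1 at 12.4 CPM per kilobase followed, each overlapping the next, and Bbc3 at 7.13 was below them. Bcl2l11 at 5.04 and Bcl2 at 4.49 CPM per kilobase overlapped, whereas Bcl2 had stood apart above Bcl2l11 in bEnd.3. Pmaip1 was last at 0.245 CPM per kilobase.

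**Figure D3:**
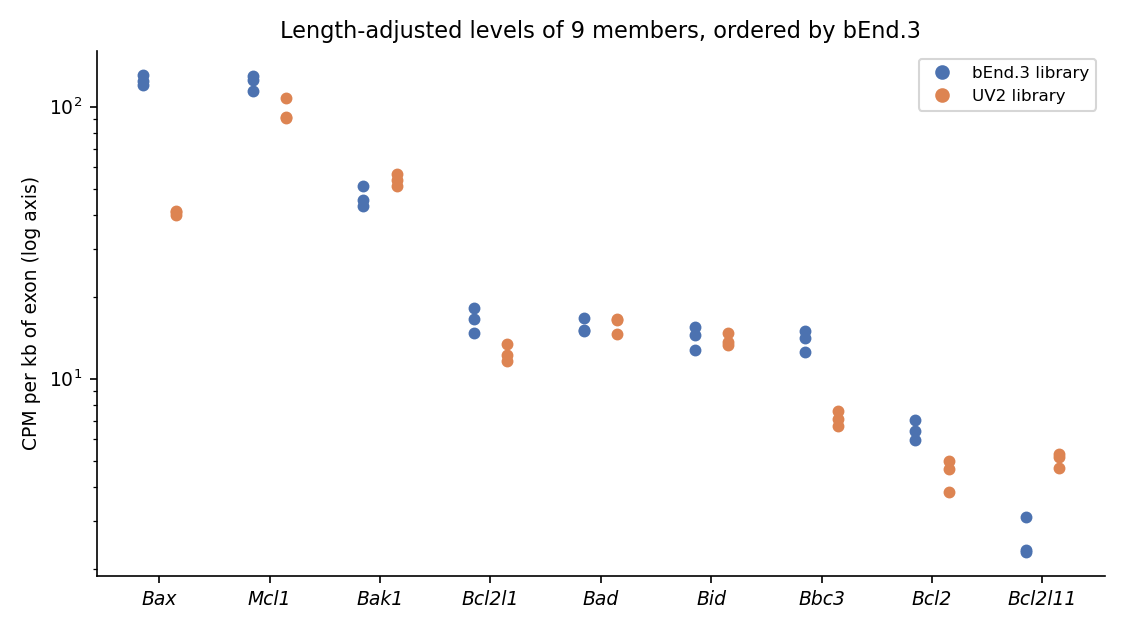
Level per length in CPM per kilobase of exon (vertical log axis) of 9 members in each library, ordered from the highest to the lowest mean in bEnd.3. Points are libraries, bEnd.3 in blue and UV2 in orange, and Pmaip1 is left out because it is at 0 in 2 libraries. Bax drops from beside Mcl1 in bEnd.3 to below Bak1 in UV2.

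The balance of death-promoting to protective transcripts was read as the log2 ratio of counts of 2 members within the same library, for 12 pairs. Each pair set Bax, Bak1, Bcl2l11 or Bbc3 over Bcl2, Bcl2l1 or Mcl1, so Bid, Bad and Pmaip1 were left out. Gene length and library scaling cancel in the difference between lines, and these values are descriptions with no test. Bax over Bcl2 was 1.69, 1.74 and 1.80 in bEnd.3 and 0.85, 0.50 and 0.61 in UV2. The ratio was thus lower in every UV2 library, by 2.12-fold on average. Bax over Bcl2l1 was 2.31-fold lower in UV2 and Bax over Mcl1 2.41-fold lower, also without overlap.

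Bcl2l11 moved the other way against the same partners. Bcl2l11 over Bcl2 was -1.38, -1.65 and -1.55 in bEnd.3 and 0.24, -0.27 and -0.02 in UV2, so the counts of these genes came close to equal in UV2. This ratio was 2.85-fold higher in UV2, and those over Bcl2l1 and Mcl1 were 2.61-fold and 2.51-fold higher. Ratios of Bak1, which was itself not called, were higher in UV2 as well, by 1.67-fold over Bcl2, 1.53-fold over Bcl2l1 and 1.47-fold over Mcl1. Those of Bbc3 were lower, by 1.46-fold over Bcl2l1 and 1.52-fold over Mcl1, and its ratio over Bcl2 overlapped between the lines (1.34-fold lower). The 12 ratios reuse the same 7 genes and are not independent of each other or of the values above.

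**Figure D4:**
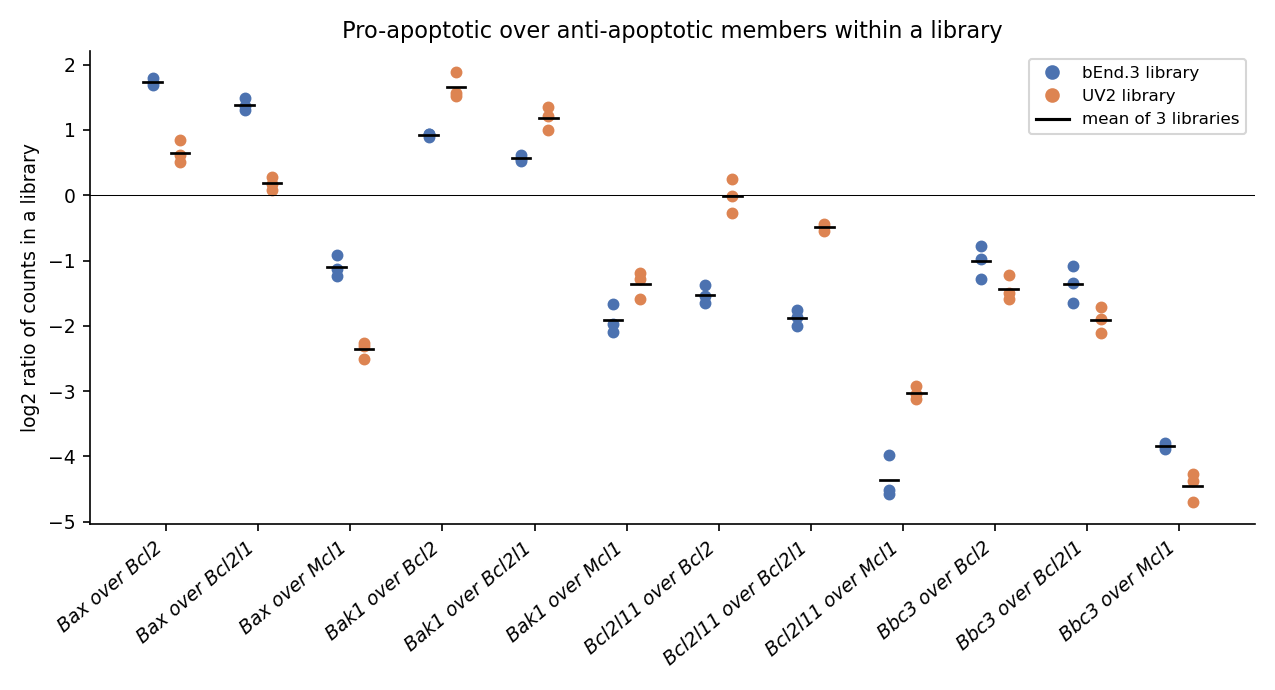
Log2 ratio of the counts of a pro-apoptotic member over an anti-apoptotic member (vertical axis) in each library, for 12 pairs. Points are libraries, bEnd.3 in blue and UV2 in orange, and black bars are means of 3. Ratios with Bax and Bbc3 on top are lower in UV2, and those with Bak1 and Bcl2l11 on top are higher.

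All 10 members together took 0.103% of the counts of each bEnd.3 library and 0.0732% to 0.0788% of those of the UV2 libraries. Spread within a line was smallest for Bax in UV2, with a coefficient of variation of 1.73%. Bax in bEnd.3 had 4.49%, and the other tested members lay between 5.15% (Bak1 in UV2) and 17% (Bcl2l11 in bEnd.3).

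Promoters are shown for Bax and Bcl2l11, the called members with the largest change in each direction. The 250 bases before a RefSeq start site (GRCm38.p6) are given 5′ to 3′ on the gene's strand. Capitals mark matches on either strand to the p53 decamer motif, to GTAAACA, the core FOXO motif, and to CACGTG, the E-box.

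Bax, chr7:45466899-45467148, minus strand: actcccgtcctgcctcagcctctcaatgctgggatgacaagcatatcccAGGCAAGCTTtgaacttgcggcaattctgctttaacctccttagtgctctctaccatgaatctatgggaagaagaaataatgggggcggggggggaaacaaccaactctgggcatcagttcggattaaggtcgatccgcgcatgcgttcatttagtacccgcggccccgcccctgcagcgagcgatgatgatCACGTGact
Bcl2l11, chr2:128125788-128126037, plus strand: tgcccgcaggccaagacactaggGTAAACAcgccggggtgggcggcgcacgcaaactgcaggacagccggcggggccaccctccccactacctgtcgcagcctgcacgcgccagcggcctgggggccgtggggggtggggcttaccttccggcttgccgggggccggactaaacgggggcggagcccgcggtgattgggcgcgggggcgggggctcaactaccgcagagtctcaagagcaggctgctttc

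The Bax window held a p53 decamer at 201 to 192 bases and CACGTG at 9 to 4 bases before the start. The Bcl2l11 window, the upstream of 2 listed for that gene, held GTAAACA at 227 to 221 bases before the start. The downstream window of Bcl2l11, not printed here, held no match to the p53 decamer, GTAAACA or CACGTG. Over all 32851 promoter windows, 7.13% held the p53 decamer, 6.02% CACGTG and 3.17% GTAAACA, searched on both strands. A pair of p53 decamers with 0 to 13 bases between them was in 0.0639% of windows and in none of the 15 windows of the members. Of the other members with a window, Bbc3 alone had a match to any of these, with GTAAACA in a window of its gene and CACGTG in another. Pmaip1 had no window and was not searched. A match is a run of letters and not evidence of binding.

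Of 15 further genes of the family, 9 were tested, and 3 were called higher and 3 lower in UV2, with a median log2 fold change of -0.26. These calls make up 66.7% of the tested ones, close to the 67.1% of all tested genes. Bik, a BH3-only gene, was low in both lines but separate, with 0.493, 0.366 and 0.373 CPM in bEnd.3 and 2.15, 2.04 and 2.27 CPM in UV2 (log2 difference 2.39, SE 0.24, edgeR adjusted p = 6.78e-05). Bcl2l2, which encodes the protective BCL-W, rose from 59.2 ± 4.72 to 81.01 ± 6.50 CPM (log2 fold change 0.45, edgeR adjusted p = 0.00235). Bnip3l, a mitophagy receptor, rose from 127.8 ± 3.06 to 184 ± 7.68 CPM (log2 fold change 0.53, edgeR adjusted p = 0.000183). These last 2 lie on chromosome 14, whose median was 0.71 over 325 genes, and with it removed both were called lower (log2 fold changes of -0.26 and -0.19).

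Bnip3, the related hypoxia-induced mitophagy receptor, fell from 8.73 ± 1.299 to 3.59 ± 0.418 CPM (log2 fold change -1.28, SE 0.17, edgeR adjusted p = 0.000273). Bok, an effector-like member, fell from 3.85 ± 0.283 to 2.03 ± 0.606 CPM (log2 fold change -0.93, SE 0.23, edgeR adjusted p = 0.0076). Bcl2l13 fell by 0.26 on the log2 scale (edgeR adjusted p = 0.0217), a call lost when bEnd.3 replicate 1 or 2 or UV2 replicate 1 or 3 was left out. Bmf, a BH3-only gene (log2 fold change -0.37), Bcl2l12 (-0.28) and Bcl2l15 (0.28) were not called. Bcl2a1a, Bcl2a1b, Bcl2a1d and Bcl2l10 had 0 counts in every library, and Hrk and Bcl2l14 held 1 and 6 counts over all libraries.

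Downstream and upstream of the family, 5 more lists of apoptosis genes had between 60% and 87.5% of their tested genes called, beside the 67.1% of all tested genes. Of the apoptosome and caspase genes, which act after cytochrome c release, 4 of 10 tested were higher in UV2 and 2 lower, with a median log2 fold change of 0.18. Casp6, an executioner caspase, rose from 14.4 ± 1.46 to 27.4 ± 1.72 CPM (log2 fold change 0.93, edgeR adjusted p = 0.000153), and Parp1, a DNA repair enzyme that caspases cut, fell by 0.60 on the log2 scale (edgeR adjusted p = 0.000178). Apaf1, the scaffold of the apoptosome, rose by 0.75 (edgeR adjusted p = 5.65e-05) and was picked after its value was seen.

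Of the inhibitor of apoptosis (IAP) genes and their antagonists, 1 of 9 tested was higher and 5 lower, with a median of -0.36. The higher one was Sept4, whose ARTS isoform antagonises XIAP (log2 fold change 1.86, SE 0.26, edgeR adjusted p = 0.000386). Xaf1, an interferon-induced antagonist of XIAP, fell from 473 ± 22.8 to 102 ± 6.80 CPM (log2 fold change -2.21, SE 0.08, edgeR adjusted p = 4.2e-07). In the death receptor list, 2 of 9 tested were higher and 4 lower, with a median of -0.38. Casp8, the caspase that cuts the Bid protein, rose from 80.5 ± 3.10 to 180.1 ± 8.63 CPM (log2 fold change 1.16, edgeR adjusted p = 4.5e-06), and Tnfsf10, which encodes the ligand TRAIL, fell by 2.26 on the log2 scale (edgeR adjusted p = 0.000254).

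Of the mitochondrial partners, 2 of 8 were higher and 5 lower, with a median of -0.26. Endog, a mitochondrial nuclease, rose by 0.91 on the log2 scale at 1.28 CPM in bEnd.3 and 2.42 CPM in UV2 (edgeR adjusted p = 0.00902), and Dnm1l, the fission GTPase, fell by 0.37 (edgeR adjusted p = 0.00456). Of the genes that regulate the family, 6 of 14 tested were higher and 3 lower, with a median of 0.05. Pim1, a kinase that phosphorylates BAD, had 0.897, 0.936 and 0.882 CPM in bEnd.3 and 12.4, 6.45 and 2.51 CPM in UV2. UV2 libraries were all above those of bEnd.3 but far apart, and the log2 fold change of 2.96 (SE 0.56, edgeR adjusted p = 0.0021) was 2.30 without UV2 replicate 1. E2f1, a cell cycle factor that can raise BH3-only genes, fell by 1.27 on the log2 scale (edgeR adjusted p = 0.000134).

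The factors named in the background above for Bax, Bbc3, Pmaip1 and Bcl2l11 were looked up after the members' values were seen. Of the p53 targets named there, Bax and Bbc3 were called lower in UV2. Pmaip1 went the other way, with 46 counts in UV2 against 1 in bEnd.3. Trp53 had 105, 90.3 and 79.1 CPM in bEnd.3 and 80.5, 75.2 and 64.4 CPM in UV2, with overlapping ranges and a log2 fold change of -0.32 near the threshold (edgeR adjusted p = 0.0485). Foxo1 rose from 109.8 ± 7.63 to 152 ± 3.04 CPM (log2 fold change 0.47, edgeR adjusted p = 0.000595). It lies on chromosome 3, whose median log2 fold change was 0.25 over 460 genes. Foxo3 (log2 fold change -0.06, edgeR adjusted p = 0.639) and Foxo4 (-0.20, edgeR adjusted p = 0.12) were not called. Ddit3, which encodes the stress factor CHOP, known to raise Bcl2l11, was not named in the background and was picked after its value was seen. It rose by 0.82 on the log2 scale (edgeR adjusted p = 0.000836). Any part of these factors in the members' differences was not tested.

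**Figure D5:**
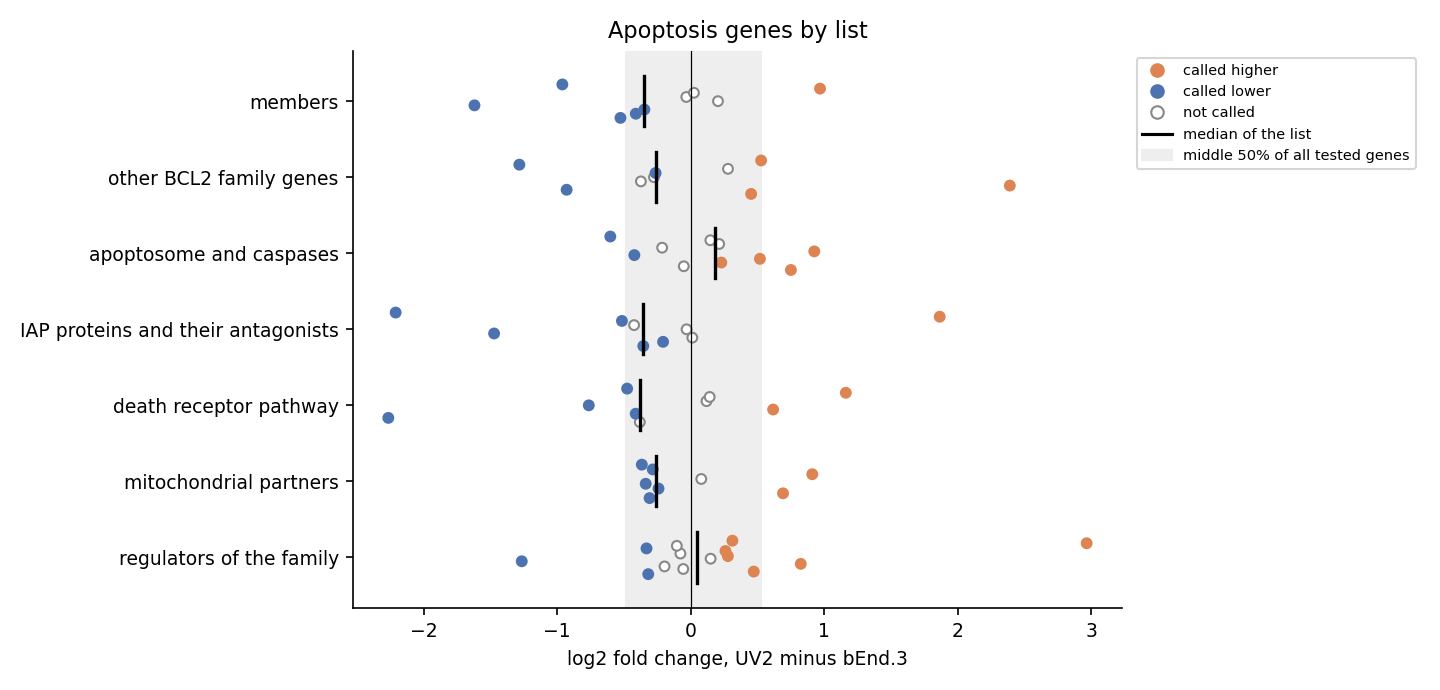
Log2 fold change of UV2 minus bEnd.3 (horizontal axis) of each tested gene of the members and of 6 lists of apoptosis genes, one point per gene. Orange points were called higher, blue ones lower and open ones not called, black bars are list medians, and the grey band holds the middle 50% of all tested genes, from -0.48 to 0.53. List medians all lie within the band, and Bax, Bbc3, Bcl2 and Bcl2l11 are the members outside it.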

How the data were processed

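Per the submitters' processing notes, the tools were Trim Galore, STAR and RSEM with mm10, with versions, annotation and strand setting not given in the sources used here. What the authors deposited was expected counts of 24411 gene symbols in 6 libraries, not normalized, from stranded mRNA libraries. Expected counts split reads that fit several genes, and BALB/c reads can map less well to a C57BL/6 reference.

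Values were rounded, and filterByExpr kept 12720 genes. The lines were compared in edgeR 4.0.16 (R 4.3.3) with TMM scaling by its quasi-likelihood test on group alone, Benjamini-Hochberg adjusted over all tested genes, and by glmTreat beyond 2-fold. Alternatives were DESeq2-style size factors, unscaled totals, other filters (none, or 1 CPM in 3 libraries), a replicate block, DESeq2 1.42.0, limma-voom (limma 3.58.1), each library left out, and removal of chromosome medians (genes with edgeR's average log2 CPM above 3, RefSeq GRCm38.p6 positions). Same-numbered libraries deviated together from their line means (correlations of 0.17, 0.28 and 0.33 across genes for replicates 1, 2 and 3). The main test on group alone ignored this possible pairing, and only the replicate block used it. Replicates were no copies of each other (chi-square per degree of freedom 11.8 to 40.2). A self-test of the fit on simulated data changed only a small share of genes. It therefore cannot show how the fit behaves where most genes differ, as here.

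Members, lists and tests were chosen with earlier results of these data known. Named genes were the 10 members, tested other genes of the family and, from each further list, the called genes with the highest and lowest log2 fold change and at least 1 CPM in the higher line. Septin4 was found as Sept4. RefSeq promoters matched 9 members, all but Pmaip1.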

Additional observations from a re-analysis of the deposited data

How the results depend on the processing

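The directions of the 6 called members were the same in all 14 alternative fits. Bax, Bcl2l11, Bbc3 and Mcl1 were called in each, and Bcl2 and Bcl2l1 in 13 of 14. With chromosome medians removed 3 members were called lower in place of 5. One further member was called higher, making 2, with no filter (Pmaip1) and with the replicate block (Bak1), and the replicate block changed no other call among 28 named genes. Leaving out 1 library gave between 1 and 3 members called higher, as Pmaip1 then passed the filter in 4 of 6 cases, and between 1 and 2 beyond 2-fold. Beyond 2-fold there were 2 members with no filter, and beyond 1.5-fold 3 members and 3990 of all genes, in place of 1 and 2470. Bcl2l2 (-0.26) and Bnip3l (-0.19) turned direction with chromosome medians removed. Bmf was called without bEnd.3 replicate 1 (log2 fold change -0.63) and Bcl2l12 with total counts (-0.34). The cause was not tested beyond what each setting changes. Depth limited Pmaip1, whose bEnd.3 level rests on 1 count.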
